A study of Caenorhabditis elegans with 2 samples.

Results

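Of the 1249 peaks in the conservative list of SEA-1 binding in Caenorhabditis elegans early embryos, 236 (18.9%, 95% Wilson interval 16.8 to 21.2) were intronic and lay away from small RNA genes. A peak was taken as intronic where its summit fell inside an Ensembl protein-coding gene of assembly WBcel235 but in no coding exon or UTR of that gene, and it was kept where no tRNA, snoRNA or snRNA gene lay within 100 bp of the summit. The rule used no measured value beyond the presence of the peak in the list, but it was set with earlier results of these data known. The 236 peaks formed 225 separate regions in 212 host genes. Intervals given for shares and densities cover counting error only.

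The chromatin came from whole organisms of strain OP129 at the early embryo stage (0 hour), collected by egg bleaching. All animals carried the integrated transgene wgIs129, which holds sea-1::TY1 EGFP 3xFLAG and the rescue marker unc-119(+), in the background unc-119(ed3), and the tagged protein was precipitated with an antibody against GFP. There were 2 biological replicates in 1 group and no second condition. The integrated copy is additional to any sea-1 gene at its own locus, and whole embryos mix all cell types present at that stage. The labels name a possible control, whose values were not used here, and the sequencing depth is unknown. No conservative summit lay inside sea-1, unc-119 or xol-1.

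SEA-1 is a T-box transcription factor, a protein that contacts DNA through a T-box domain, and it is one of the autosomal signals that the embryo weighs against those of its X chromosomes at the sex-determination gene xol-1. Introns are the stretches of a gene that splicing removes from its transcript, and in worms many are short while a minority are long and can hold enhancers, promoters of internal transcripts or whole genes nested inside the host. RNA polymerase III transcribes tRNA genes from internal promoter elements called the A box and the B box, which is why these elements were searched beside the T-box core.

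The sequences below were read from the RefSeq genome of assembly WBcel235 and are 30 bases long, on the strand of the match, with the match in capitals. First come the 6 intronic peaks with the T-box core GGTGTGA within 100 bp of the summit. They are shown because they hold the letters known for the domain of the precipitated protein.
rme-1 (chrV:6214049-6214078, minus strand): caacaatcaggcGGTGTGAgagagtgggac
unc-62 (chrV:4499176-4499205, minus strand): cagtagaccccgGGTGTGAgaggagggtga
cdc-25.2 (chrV:1573745-1573774, plus strand): gttttatggtaGGTGTGActttttttgaga
C13F10.5 (chrV:7215965-7215994, minus strand): agctctggtgctGGTGTGAattttcattca
bed-2 (chrIII:11468376-11468405, plus strand): tctcatattttGGTGTGAgggggaccgtgt
cla-1 (chrIV:7619494-7619523, minus strand): aggcgggcaccgGGTGTGAgcggagcgacg

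The next windows hold a B box (GTTCGANNC) or an A box, and come from the 4 peaks found in both replicates' own lists with such a match. The A box searched is the capital run of the tba-7 and tpra-1 windows with its bases 5 and 6 free.
unc-104, B box (chrII:7001668-7001697, plus strand): gaagtctgggGTTCGATTCcccatacctcc
mdt-26, B box (chrII:5661924-5661953, minus strand): acgcgagagggGTTCGAGACgcagaggagg
tba-7, A box (chrIII:11371455-11371484, minus strand): gatgcacgcgTGGCCGAGTGGcagtgtgtt
tpra-1, A box (chrIV:8964240-8964269, plus strand): ttacctgtgTGGCCCAGTGGttagtgcgta

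The peak in Y41D4B.6 held an A box and a B box within the same window, and is shown for that reason, having been picked after its values were seen.
Y41D4B.6, A box (chrIV:1637032-1637061, plus strand): atgtccgaaTGGCGCAGTGGgattttccaa
Y41D4B.6, B box (chrIV:1637074-1637103, plus strand): gaagaccgggGTTCGAGTCcgcactgtggt

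A further 4 intronic peaks had their summits within 100 bp of a microRNA gene. MicroRNAs pair with target messenger RNAs mainly through their seed, bases 2 to 8, printed here in capitals in the DNA letters of the genome. The mature sequences are those annotated by RefSeq, and mir-35 and mir-36 share 1 seed.
mir-35 (chrII:11537668-11537689, plus strand): tCACCGGGtggaaactagcagt
mir-36 (chrII:11537773-11537794, plus strand): tCACCGGGtgaaaattcgcatg
mir-229 (chrIII:2172459-2172484, plus strand): aATGACACtggttatcttttccatcg
mir-54 (chrX:13145011-13145034, minus strand): tACCCGTAatcttcataatccgag
mir-58.1 (chrIV:3233314-3233335, plus strand): tGAGATCGttcagtacggcaat

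The strongest intronic peaks were led by ints-8, which encodes a subunit of the Integrator complex that processes small nuclear RNAs. Strength is given as the signal value the authors deposited, whose normalization is not stated, and it is used to describe and rank peaks within a list. Each replicate's value is that of its strongest ranked peak overlapping by at least 1 bp. The 2 replicates' values are set side by side as a description, since their lists have no stated common scale and which of them is higher cannot be read. The ints-8 peak had a signal value of 402, with 195 in replicate 1 and 198 in replicate 2. It lay in intron 5 of 9, an intron of 2023 bp on chromosome I, and its summit was 13 bp inside rpr-1, the gene of the RNA component of RNase P, which runs on the opposite strand to ints-8.

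The next peak, in unc-104, the kinesin that carries synaptic vesicle precursors, had a signal value of 286, with 109 in replicate 1 and 173 in replicate 2. It lay in intron 5 of 23, 110 bp from a splice site and 16 bp upstream of a tRNA pseudogene that the annotation does not count among the tRNA genes. This is the pseudogene whose B box is shown above. The cmk-1 peak, in a calcium/calmodulin-dependent protein kinase gene, had a value of 272, with 86.9 in replicate 1 and 145 in replicate 2. The M01F1.8 peak had 265, with 92.3 in replicate 1 and 171 in replicate 2, and its summit fell in the promoter window of the neighbouring gene M01F1.9. A promoter window here runs from 1000 bp upstream to 200 bp downstream of a coding transcript's 5′ end.

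The tba-7 peak, in an alpha-tubulin gene, had a signal value of 262, with 125 in replicate 1 and 128 in replicate 2. Its host intron was only 238 bp long, and 3 genes of the noncoding RNA class, T28D6.10, T28D6.13 and T28D6.15, lay within 100 bp of the summit. The summit fell inside T28D6.13 and T28D6.15, and the A box shown above for tba-7 lies within T28D6.15, on the same strand. The spd-5 peak, in the gene of a centrosome scaffold protein, had 259, with 142 in replicate 1 and 118 in replicate 2. Its summit was in the promoter windows of spd-5 itself and of npp-6, a nuclear pore gene. The let-268 peak, in a procollagen lysyl hydroxylase gene, had 254, with 130 in each replicate, and lay in the last of 9 introns, in the promoter window of mtcu-2. The mdt-26 peak, in a Mediator subunit gene, had 242, with 113 in replicate 1 and 131 in replicate 2.

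The remaining 12 of the 20 strongest peaks found in both own lists had signal values of 232 or less. They included K05C4.2, a jagunal homolog by its RefSeq product, at 232, with 143 in replicate 1 and 98.0 in replicate 2. Y47H10A.4, a decapping nuclease by its RefSeq product, had 230, with 129 in replicate 1 and 107 in replicate 2. The window of 201 bp around its summit was wholly masked as repeat in the RefSeq genome, as was that of the chemoreceptor gene srw-100 at 199. The kinesin-like gene klp-6 had 192, with a summit 138 bp inside the noncoding RNA gene srpr-2.2. The first intron of cox-6B, a cytochrome c oxidase subunit gene, held 2 of the 20, at 184 and 125, and the stronger lay in the promoter window of swsn-3, an HMG box gene. The calcium sensor gene stim-1 had 177, tpra-1 had 168, and W01D2.3, a receptor expression-enhancing protein gene, had 163 with its summit inside the noncoding RNA gene W01D2.8. The FLYWCH transcription factor gene flh-1 had 158, lmd-3 had 149 and Y67D8A.2 had 142. The summits in K05C4.2, tpra-1 and flh-1 lay in the promoter window of the host gene itself. In these 12 the replicates' values ranged from 61.5 to 143 in replicate 1 and from 68.2 to 107 in replicate 2.

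**Figure D1:**
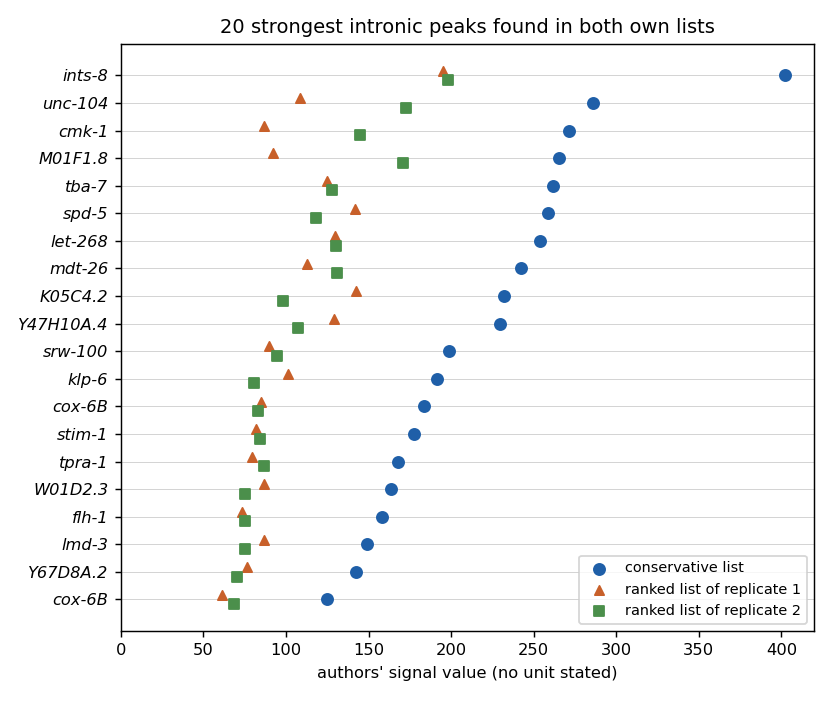
The authors' signal value (horizontal axis, no unit stated) of the 20 strongest intronic peaks found in both own lists, 1 row per peak and named by host gene, cox-6B standing for 2 peaks; circles are values in the conservative list, triangles and squares those of the best overlapping ranked peak in replicates 1 and 2. The conservative values run between 125 for the weaker cox-6B peak and 402 for ints-8, and ints-8 leads in each replicate, at 195 in replicate 1 and 198 in replicate 2.

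Few intronic peaks were found by each replicate on its own. Each replicate has a thresholded list of its own, and a peak was counted as found there where it overlapped a listed peak by at least 50% of the shorter. Both own lists held 27 of the 236 intronic peaks (11.4%, interval 7.98 to 16.1), beside 301 of the 1013 other conservative peaks (29.7%, interval 27.0 to 32.6). Over the whole list 328 of 1249 peaks were in both (26.3%). Replicate 1 alone held 24 intronic peaks and replicate 2 alone held 29. Neither list held 156 (66.1%, interval 59.8 to 71.8), against 481 of the other peaks (47.5%, interval 44.4 to 50.6).

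By class, both own lists held 13.2% (interval 9.45 to 18.1) of the 235 intergenic peaks outside promoter windows and 5.96% (interval 3.17 to 10.9) of the 151 peaks in coding exons or UTRs. Both of these intervals overlap that of the intronic peaks. The lists held 25.7% (interval 21.2 to 30.7) of the 323 intergenic peaks in promoter windows, and 58.6% (interval 52.9 to 64.0) of the 304 peaks at small RNA genes. The rule placed a further 145 intronic summits in the last class because a small RNA gene lay within 100 bp.

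Intronic peaks were weaker than most other classes, those in exons or UTRs apart. Their median signal value was 85.0 (interquartile range 75.9 to 100.1), against 99.8 (82.9 to 139) for the other conservative peaks. By class the medians were 101 in promoter windows, 89.6 in distal intergenic sequence, 81.3 in exons or UTRs and 147 at small RNA genes. Of the 312 strongest peaks of the list 22 were intronic (7.05%), of the next 312 it was 50 (16%), of the 312 after those 72 (23.1%) and of the 313 weakest 92 (29.4%). Within these 4 ranges of signal value the shares found in both own lists had overlapping intervals. In the strongest range it was 19 of 22 intronic peaks (86.4%, interval 66.7 to 95.3) and 263 of 290 others (90.7%, interval 86.8 to 93.5). In the next range it was 8 of 50 (16%, interval 8.34 to 28.5) and 36 of 262 (13.7%, interval 10.1 to 18.4). In the one after it was 0 of 72, which allows a share of up to 4.17%, and 2 of 240 others, and in the weakest 0 of 92, which allows up to 3.26%, and 0 of 221. Both of these lower ranges lay below a signal value of 95.5, and the weakest intronic peak in both own lists had 103. Those ranges thus held next to no peaks of either kind to compare.

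**Figure D2:**
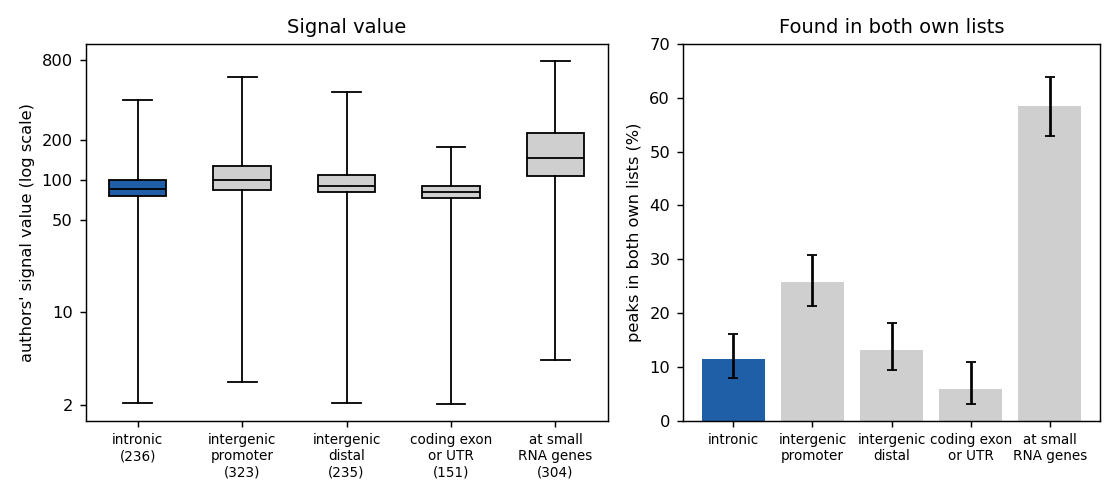
Left, the authors' signal value (log scale) of the conservative peaks by position, with the number of peaks in brackets; boxes span the quartiles, lines mark medians and whiskers reach the lowest and highest peak. Right, the percentage of each class found in both replicates' own lists, with 95% Wilson intervals. The intronic peaks have a median of 85.0 and 11.4% in both own lists, and the peaks at small RNA genes 147 and 58.6%.

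All 236 intronic peaks overlapped a ranked peak in each replicate. Their median signal value was 45.1 in replicate 1 and 43.3 in replicate 2, against 52.1 and 49.9 for the other conservative peaks with such a peak. Across the 236 peaks log10 values of the replicates had Pearson's r = 0.60 and Spearman's rho = 0.20, and r was 0.55 without the 2 peaks farthest from the median of replicate 1. Across 1004 other peaks r was 0.82 and rho 0.60. Those peaks span a wider range, up to 386 in replicate 1 against 195 for the intronic peaks. Correlations of the 2 sets at a like range were not computed. These correlations describe peaks, which share the 2 libraries and were listed because both replicates ranked them, and overlapping peaks can share a ranked peak.

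**Figure D3:**
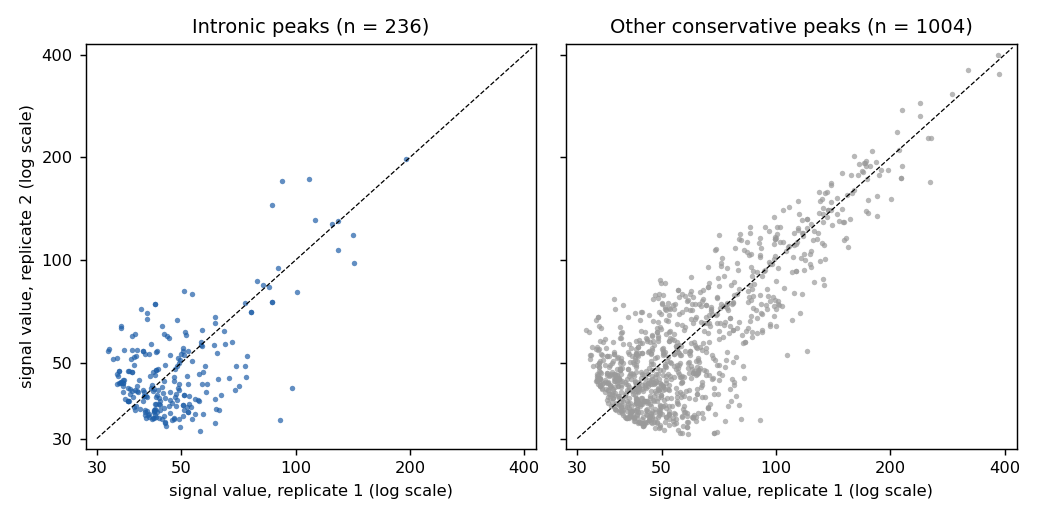
Signal values of the best overlapping ranked peak in replicate 1 (horizontal) and replicate 2 (vertical), both on log scales, for the 236 intronic peaks (left) and 1004 other conservative peaks (right); each point is a peak and the dashed line marks equal values. Most intronic peaks lie in the low cloud, with medians of 45.1 and 43.3, and few reach 100 in both replicates.

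The strongest intronic peaks found in neither own list were T18D3.9, a homolog of the mitochondrial inner membrane protein Mpv17, dhgd-1, a D-2-hydroxyglutarate dehydrogenase gene, and ckk-1, a kinase that acts on CMK-1. T18D3.9 had a signal value of 123, with 70.9 in replicate 1 and 42.7 in replicate 2. The dhgd-1 summit, at 112, also fell in an exon of F54D5.7, a second coding gene nested there, and 1 other intronic peak, in dhc-4, fell in an exon of col-93. The ckk-1 peak had 112, with 51.3 in replicate 1 and 61.5 in replicate 2. The 3 weakest were Y50C1A.2 at 3.00, dab-1 at 2.27 and ajm-1 at 2.07. They belong to the 14 intronic peaks with signal values below 20. All 14 shared sequence with a stronger conservative peak, and such pairs can take their replicate values from the same ranked peak.

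The host introns were long. For 230 of the 236 peaks the summit lay in an intron of a protein-coding transcript. Where several transcripts had the summit in an intron, the one with the longest coding sequence was taken. Of the other 6, the 3 in cdc-25.2 and 1 in Y17D7C.1 lay in introns of a transcript of another class, and the 2 in tos-1 lay in no intron of such a transcript. The median host intron was 1951 bp (interquartile range 810 to 3918), between 44 and 86515 bp. Over all 103832 introns, 1 transcript a gene, the median was 64 bp, and the middle base of all intronic sequence lay in an intron of 936 bp. Introns over 1000 bp held 162 of 230 peaks (70.4%, interval 64.2 to 76.0), but make up 47.8% of intronic length and 6.83% of introns.

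Peaks per Mb of intron were 2.97 (exact Poisson interval 1.36 to 5.64) in introns under 100 bp, 4.17 (2.77 to 6.03) from 100 up to 500 bp and 4.13 (2.81 to 5.86) from 500 up to 1000 bp. They were 7.99 (5.91 to 10.6) from 1000 up to 2000 bp, 12.4 (9.56 to 15.8) from 2000 up to 5000 bp, 9.97 (6.68 to 14.3) from 5000 up to 10000 bp and 12.6 (7.60 to 19.7) in those of 10000 bp or more. The intervals of the 3 shorter classes do not overlap that of the class from 2000 up to 5000 bp, and the 3 longest classes overlap each other. The longest introns with a peak were the first intron of cox-6B, with 86515 bp and 2 peaks, and intron 4 of 9 of kin-1, the catalytic subunit of protein kinase A, with 21230 bp. The kin-1 peak had a signal value of 74.0, with 40.5 in replicate 1 and 34.6 in replicate 2.

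First introns held 75 of 230 peaks (32.6%, interval 26.9 to 38.9), beside 25% of intronic length and 18.6% of introns. Densities were 9.07 peaks per Mb (interval 7.13 to 11.4) in intron 1, 6.02 (4.12 to 8.50) in intron 2, 4.23 (2.47 to 6.78) in intron 3, 9.14 (6.21 to 13.0) in intron 4, 6.78 (4.08 to 10.6) in intron 5 and 6.05 (4.57 to 7.86) in later ones. At a like intron length, first and later introns had overlapping intervals. Below 1000 bp the density was 4.76 (2.72 to 7.72) in first and 3.74 (2.80 to 4.91) in later introns, from 1000 up to 5000 bp it was 11.4 (7.89 to 15.9) and 9.52 (7.55 to 11.9), and from 5000 bp it was 13.0 (8.41 to 19.2) and 9.24 (5.85 to 13.9). Where a first intron of any coding transcript was counted, 41.3% of peaks lay in one.

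**Figure D4:**
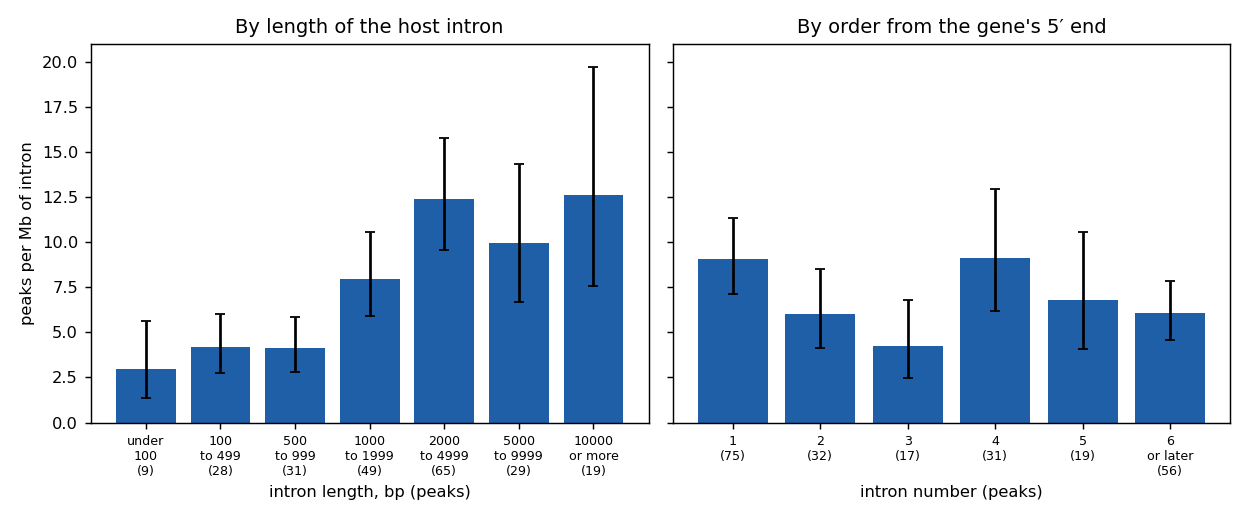
Intronic peaks per Mb of intron by length of the host intron (left) and by its order from the 5′ end (right), with exact 95% Poisson intervals and the number of peaks in brackets under each bar. Density is 4.17 or less in introns under 1000 bp and 7.99 or more in longer ones, and is 9.07 in intron 1 and 9.14 in intron 4.

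Within the intron, summits lay at a median of 48.6% of its length from the 5′ splice site, and with introns cut into 3 equal parts 69 lay in the part nearest that site, 97 in the middle and 64 in the last. The nearest splice site was at a median distance of 413.5 bp, and the start of the host transcript at 2668.5 bp. A promoter window held 61 summits (25.8%, interval 20.7 to 31.8), beside 18.1% of intronic bases. In 46 it was that of the host alone, in 9 that of another gene alone and in 6 of both. Of the 61, 11 were in both own lists (18.0%, interval 10.4 to 29.5), against 16 of the 175 outside (9.14%, interval 5.71 to 14.3). By chromosome, density was 6.68 peaks per Mb of intron on I, 7.63 on II, 10.6 (interval 8.0 to 13.7) on III, 6.48 on IV, 4.38 (interval 2.86 to 6.42) on V and 6.47 (interval 4.51 to 9.0) on X. Chromosome III was above V beyond these intervals, and X lay among the autosomes. The 6 peaks outside introns of coding transcripts were all on V and are not in its density. With them V had 32 peaks and 5.39 per Mb (interval 3.69 to 7.61), which is still below the interval of III.

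Other noncoding genes stood near a part of the intronic peaks. Within 100 bp of 28 summits (11.9%, interval 8.34 to 16.6) lay a noncoding gene of another class, against 281 of 1013 other conservative peaks (27.7%, interval 25.1 to 30.6) and 5.11% of intronic bases. Those others include the 304 peaks at small RNA genes, and their share without these was not computed. Among the 28 the class was ncRNA in 24, miRNA in 4 and pseudogene in 3, some having more than 1. None was lincRNA, piRNA, antisense RNA or rRNA, which allows each a share of up to 1.27%. The summit lay inside such a gene in 18. Both own lists held 5 of these 28 peaks (17.9%, interval 7.88 to 35.6), against 22 of the 208 others (10.6%, interval 7.09 to 15.5), and their median signal value was 91.7 against 84.4.

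The microRNA neighbours lay in host introns on both strands. The peak in intron 2 of Y62F5A.9, an uncharacterized gene, had a signal value of 92.5, with 43.2 in replicate 1 and 54.0 in replicate 2. Its summit was 18 bp inside the precursor of mir-36 and 123 bp past the 5′ end of mir-35, members of a microRNA family known to be needed for embryonic development. Intron 3 of the same gene held a second peak, with a value of 102. The gcn-1 peak had 87.4 and lay 17 bp upstream of the mir-229 precursor, and an F09A5.3 peak had 82.3 and lay 71 bp upstream of that of mir-54. The weaker peak of Y67D8A.2 had 12.5, lay 17 bp upstream of mir-58a, the name Ensembl gives to mir-58.1, and overlapped the stronger Y67D8A.2 peak of 142.

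Of the motif groups, the T-box core stood in 6 of 236 windows of 201 bp around intronic summits (2.54%, interval 1.17 to 5.43). Both strands were searched. It stood in 1.38% of the other conservative windows and in 1.2% of 125376 windows of the same length tiled through introns, values that lie within that interval. The 6 hosts were rme-1, an endocytic recycling gene, the homeodomain gene unc-62, the cell cycle phosphatase gene cdc-25.2, C13F10.5, the BED-type zinc finger gene bed-2 and the presynaptic gene cla-1. Their signal values ran from 71.1 in cla-1 to 91.4 in rme-1. The replicates' values were 42.6 and 35.1 in cla-1 and 38.3 and 42.7 in rme-1, for replicates 1 and 2. None of these peaks was in both own lists: the core stood in 0 of 27 such peaks, which allows a share of up to 11.1%.

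The B box stood in 11 intronic windows (4.66%, interval 2.62 to 8.15), against 1.97% of the other peaks away from small RNA genes, 19.1% of all other peaks and 1.23% of intronic windows. The A box stood in 7 (2.97%, interval 1.44 to 5.99), against 1.55%, 4.54% and 0.227%. Of the 27 peaks in both own lists 2 held a B box, in unc-104 and mdt-26, and 2 an A box, in tba-7 and tpra-1. In Y41D4B.6 both boxes stood on the same strand with 43 bp between their first bases, and the nearest annotated small RNA gene was 32759 bp away. The window of 201 bp around this summit was masked as repeat over 64.2% of its length. The Y41D4B.6 peak had a signal value of 84.5, with 37.7 in replicate 1 and 49.1 in replicate 2, and was in neither own list. A match describes letters and not a bound site.

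Of the remaining motifs, the repeat GAGAGAGA stood in 8.05% of intronic peaks, 5.13% of the other peaks and 1.36% of intronic windows. The letters GGGCGG, known as a GC box, stood in 13.1%, 13.7% and 3.37%, and CTGCGTC in 6.78%, 5.73% and 1.69%. The E box CACGTG stood in 3.39%, 2.76% and 2.75%, and the GATA factor letters TGATAAG in 0.847%, 1.78% and 2.61%. Base composition also differed between peaks and intronic windows. The median GC content was 46.8% in the intronic peaks and 46.8% in the other peaks, against 31.8% in intronic windows. Only the summit had to be intronic, and 181 of the 236 intronic peaks met the rule over their whole length. Windows around summits can thus reach into exons, while the tiled ones lay within introns. The part of base composition in the motif shares was not tested. Windows masked as repeat over at least 50% of their length made up 20.3% (interval 15.7 to 25.9) of the intronic peaks, 11.4% (interval 9.54 to 13.5) of the others and 51.4% of intronic windows. The others include the 304 peaks at small RNA genes, of which 0 were so masked. Of the 709 others away from small RNA genes it was 16.2% (interval 13.7 to 19.1), which overlaps the intronic interval, with 22.6% in distal intergenic sequence, 16.4% in promoter windows and 5.96% in exons or UTRs. In 7 intronic peaks the whole window was masked.

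The 212 host genes were 1.1% of the 19286 coding genes with an intron. Their longest intron had a median of 2777 bp, counted over the 209 with the summit in a coding transcript's intron, against 436 bp over all such genes, so lists of genes with long introns offer more intronic sequence. The shares of hosts in the lists below rest on few genes and carry no interval. Few of their peaks were in both own lists. It was 1 of 8 peaks in cell adhesion, matrix and cytoskeleton, 1 of 6 in cell signalling and 1 of 3 in maternal polarity and cell fate. In chemoreceptors it was 1 of 7, and in the other lists 0. Of the 67 genes of cell adhesion, matrix and cytoskeleton 5 were hosts (7.46%). They were unc-104, the actin gene act-4 at a signal value of 103, the apical junction gene ajm-1 at 94.2, the Ena homolog unc-34 at 73.2 and the cadherin gene hmr-1 at 31.8. Of 83 cell signalling genes 5 were hosts (6.02%). They were cmk-1, the Disabled homolog dab-1 at 99.98, the Ror receptor gene cam-1 at 98.1, the patched homolog ptc-1 at 75.9 and kin-1. Of 37 maternal polarity and cell fate genes 2 were hosts (5.41%). They were the Nemo-like kinase gene lit-1 at 112, with 40.6 in replicate 1 and 69.9 in replicate 2, and the porcupine homolog mom-1 at 110, with 56.5 and 57.5.

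Among 56 chromatin and dosage compensation genes 2 were hosts (3.57%), the DRM complex gene lin-9 at 85.5 and the zinc finger gene zfp-1 at 83.2. Among 60 genes of RNA binding and splicing 2 were hosts (3.33%), larp-1 at 88.1 and the splicing factor gene sfa-1 at 71.3. Of 513 listed transcription factor genes with an intron, from 512 matched names, 7 were hosts (1.36%). They were led by the GATA factor gene elt-3 at 112, zip-2 at 97.3, unc-62 at 90.8 and lsy-22 at 79.7. This list is not complete: the stronger host flh-1, at 158, is not in it. Of 215 genes of ribosomal proteins and translation 2 were hosts (0.930%), eif-3.I at 81.0 and mrps-14 at 74.1. Of 1309 chemoreceptor genes with an intron, matched from 1299 listed names, 6 were hosts (0.458%). They were led by srw-100, srt-52 at 127, srbc-58 at 91.1 and srg-64 at 81.1.

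No host was among the 66 listed genes of synapse and ion channels, which allows a share of hosts of up to 4.55%. A share of 1.1% could not be told from 0 in a list of this size. The 0 holds for this list and not for all synaptic genes. The presynaptic host cla-1 is not in it, and unc-104 was counted under cell adhesion, matrix and cytoskeleton. No host was among the 35 muscle sarcomere genes (up to 8.57%), the 274 guanylate cyclase and GPCR or peptide genes (up to 1.09%) or the 163 collagen genes (up to 1.84%), although the dhc-4 summit fell in an exon of the nested col-93. The lists that held hosts at a share over 1.1% had median longest introns between 527.5 and 1277 bp. Those of synapse and ion channels, at 1768 bp, and of muscle sarcomere, at 1355 bp, had longer ones and held no host. The part of intron length in these shares was not tested.

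At the distance limit of 100 bp, the nearest intronic summits left out lay 83 bp from a snoRNA gene in pcmd-1, with a signal value of 150, and 82 bp from one in rpn-8, with 136. The nearest kept lay 142 bp from a snoRNA gene in die-1, with 92.3, and 145 bp from a tRNA gene in Y43D4A.5, with 8.84. This Y43D4A.5 peak had 64.8 in replicate 1 and 61.9 in replicate 2, the same values as a peak of 123 at small RNA genes. Likewise the ajm-1 peak of 2.07, 191 bp from a tRNA gene, had 91.0 and 33.9, the same as a peak of 113 in that class. Only 4 intronic peaks lay within 250 bp of such a gene.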

How the data were processed

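Chromatin immunoprecipitation was sequenced in 2 biological replicates of 1 group. The authors deposited peak lists on assembly ce11, per the labels, while aligner, peak caller and depth were not given in the sources used here. Strength is the signal value that the authors deposited; its normalization is not stated, and it served to describe and rank peaks within a list and, across the replicates, as description only. The conservative list comes from both replicates together. Positions are 1-based and were set against WBcel235, the same assembly, with the Ensembl 115 annotation and RefSeq sequence, in Python 3.11.15 with pandas 2.3.3, numpy 2.4.6, scipy 1.17.1 and matplotlib 3.10.9.

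The densities use 33.0 Mb of intronic bases outside coding exons and over 100 bp from small RNA genes, each base labelled by the transcript with the longest coding sequence. No test was made: intervals given for shares are 95% Wilson intervals and those for densities exact Poisson intervals. The shares of listed genes that were hosts carry none. The limit for a count of 0 is 3 counts. Host genes named were those of the 20 strongest peaks in both own lists, the 3 weakest peaks, 3 or more peaks in 1 gene, the longest introns, a T-box core, the 3 strongest in neither list, and up to 4 hosts of a gene list (all where 5 or fewer). The genes dhc-4, T09B4.5, attf-4, pks-1, Y41D4B.6, Y17D7C.1, tos-1, the microRNA hosts and the genes at the distance limit were named after their values were seen. The members and lists were chosen with earlier results of these data known. Intron order, length and overlaps were tested on planted positions. Alternatives changed the peak list, overlap, windows, transcript choice and replicates.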

Additional observations from a re-analysis of the deposited data

How the results depend on the processing

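Of 57 alternative values 41 stayed close to the reported one, which means within 1.5 times for a count and within the reported value's 95% interval for a share, median or correlation. The other 16 moved and none reversed. With the stronger 50% of the list, 72 intronic peaks were left, with a median signal value of 112, 37.5% in both own lists and 0% with the T-box core. With peaks of 1 replicate's own list alone (each replicate left out in turn), the median signal value was 112 to 118, the promoter share 35.3% to 35.7%, the X share 10.7% to 11.8%, the T-box share 0% and the share counted as found 21.6% to 23.7%, which counts 1 list in place of both by construction. Promoter windows of 500 and 100 bp held 16.9% of peaks and those of 2000 and 200 bp 41.1%. First introns of any transcript held 41.3%. The second list of both replicates gave 232 peaks, a whole-peak rule 181 and distance limits of 50 and 250 bp 252 and 232. Leaving out peaks with a stronger overlapping neighbour, chosen after seeing the data, gave a median signal value of 87.5, 32.9% in first introns and a median intron of 1968 bp. Pairing by nearest summit, also added then, gave a replicate correlation of 0.59. The unknown depth and the missing control values limit how far an absent or weak peak can be read, and no paired analysis was possible because there is 1 group.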

Other observations

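Several genes held more than 1 intronic peak. Of the 212 hosts, 190 had 1 peak, 20 had 2 and 2 had 3. Overlapping peaks are counted separately here: of the 22 hosts with 2 or more, 13 had 2 or more regions that did not overlap, and in 9 all peaks lay in 1 region. The 3 peaks of the actin gene act-4 lay in its first intron of 2081 bp, with signal values of 103, 84.2 and 23.3, and those of 84.2 and 23.3 overlapped. The 3 peaks of cdc-25.2 had 85.2, 78.1 and 7.35, of which the weaker pair overlapped, in a 10579 bp intron of a transcript of another class. Of the hosts with 2 peaks that did not overlap, let-268 had values of 254 and 109, T09B4.5 had 134 and 84.0, and lit-1 had 112 in intron 7 and 87.2 in an intron of 12325 bp.

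A further 9 peaks had their summits in introns under 100 bp, shorter than the peak itself. The strongest of these, in attf-4, had a signal value of 111 in an intron of 49 bp. The polyketide synthase gene pks-1 held 2 of them, in introns 21 and 22 of 44 and 47 bp, with 88.4 and 23.4, and these overlapped and took their replicate values from the same ranked peaks.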
